A study of Brassica juncea with 21 samples.

Results

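Plants break sucrose down with invertases, which hydrolyse it to glucose and fructose, or with sucrose synthases, which convert it with UDP to fructose and UDP-glucose. Cell wall invertases act outside the cell, vacuolar invertases act in the vacuole and sucrose synthases act mainly in the cytosol. In Arabidopsis nectaries the sucrose exporter SWEET9 and the cell wall invertase CWINV4 are both needed for nectar, and cleavage of exported sucrose outside the cell keeps its concentration there low.

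Transcripts of 5 such enzymes were followed in Brassica juncea, a mustard of the cabbage family: CWINV4 (LOC103865521), its copy CWINV4-like (LOC103857608), the vacuolar invertase VI2 (LOC103843145) and the sucrose synthases SUS1 (LOC103845641) and SUS3 (LOC103836763). They were chosen by gene identifier, with their values in all 7 groups already known, and make up 5 of the 14398 transcript rows. All 5 passed the filter on low values, as did 14390 rows in all. Since all differences between groups were open to that choice, every value below is a description. Another 9 rows are listed as invertases or sucrose synthases by matched locus or product name, and are given beside them.

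Floral nectaries of 2 types, lateral and median, were dissected at 3 stages from plants about 40 days old, and no cultivar, treatment or mutation is named for any group. The pre-secretory stage was 24 h before the flower opened, the secretory stage was the open flower, dissected 4 to 8 h after dawn. Post-secretory nectaries were from 12 h later. Leaf was taken at the time of the secretory stage. Each of the 7 groups had 3 libraries, and each nectary library pooled about 100 nectaries, at most 4 from a flower. The table holds 1 normalized value per group and row, so no error can be given and nothing was tested, and "higher" and "lower" refer to those values alone. How far any 2 neighbouring values differ beyond replicate error is unknown, as is the depth of each library.

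Nectary and leaf mesophyll marker genes separated the nectary groups from leaf. They do not check the labels of nectary type or stage. The nectary transcription factor CRC (LOC103831319) had values from 8025 to 63385 in nectaries and 92 in leaf, and the summed value of 5 leaf mesophyll rows was 34289 to 88400 in nectaries and 1092407 in leaf. Pollen marker rows, 4 in number, summed to 176 in leaf and to 600, 3909 and 2984 in lateral nectaries from the pre-secretory to the post-secretory stage. In median nectaries they summed to 1123, 6110 and 9677. Of the phloem markers 2 rows were measured, with sums of 237 to 998 in nectaries and 1430 in leaf, and of the xylem markers 0. The 2 phloem rows differed in direction: SUC2 (LOC103840834) had 1297 in leaf and 10 to 731 in nectaries. Callose synthase 7 (LOC103844035) had 133 in leaf and 466 to 877 in nectaries before and during secretion. After secretion this row had 71 in lateral and 155 in median nectaries. The lateral post-secretory column lacks the normalization mark that the other 6 carry, so every statement on it assumes the same scale. In pooled tissue, fewer cells of a type and less RNA per cell cannot be told apart.

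The members fell into separate patterns across the 7 groups. CWINV4, CWINV4-like and SUS1 were nectary transcripts with high values before or during secretion and low ones in leaf, whereas VI2 and SUS3 had their highest value in leaf and were lowest in nectaries before or during secretion. After secretion the first 3 were lower and the other 2 higher, in both nectary types.

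**Figure D1:**
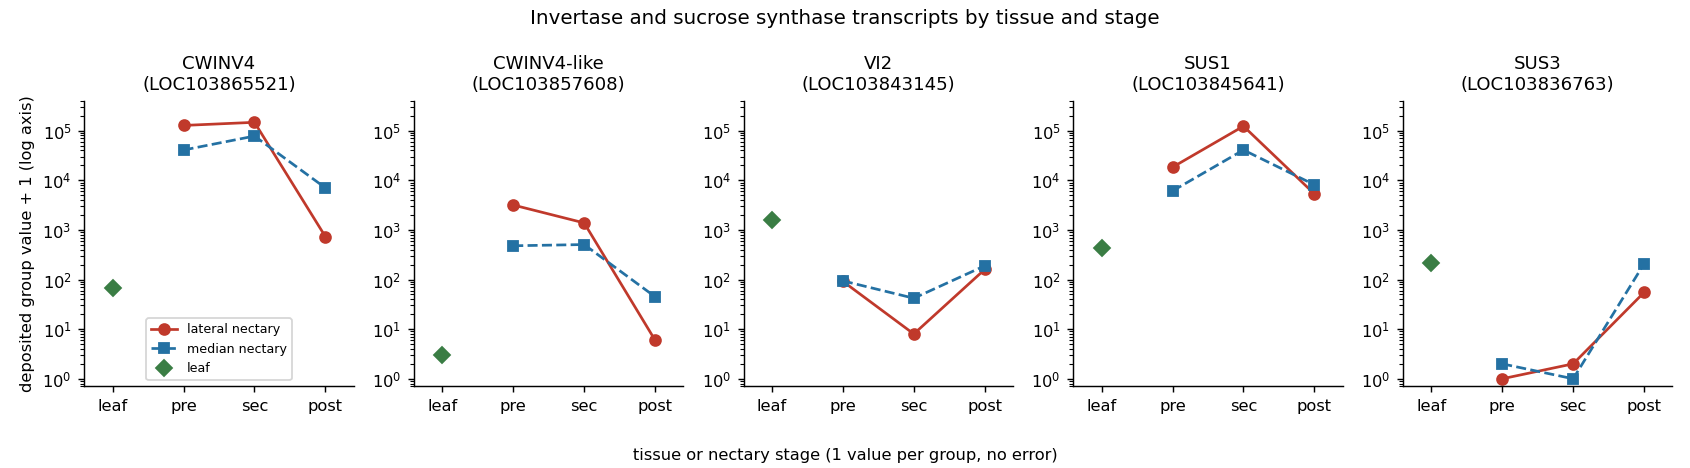
Each panel plots the deposited group value plus 1 on a log axis for 1 gene, in leaf (diamond) and before, during and after secretion in lateral (circles) and median (squares) nectaries, with 1 value per group and no error bars. CWINV4 spans 67 in leaf to 147338 in lateral secretory nectaries, while SUS3 lies at 0 or 1 before and during secretion and at 54 and 207 after it.

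CWINV4, the extracellular invertase, had a value of 67 in leaf. In lateral nectaries it was 127450 before secretion, 147338 during it and 730 after it. In median nectaries it was 40741, 77852 and 7021 in the same order. Thus both nectary types had high values before secretion had begun, and lateral nectaries had the higher value at the first 2 stages and the lower one at the third. The Arabidopsis locus it matched, AT2G36190, lies on chromosome 2 from 15174951 to 15177785 on the reverse strand. The table names no build and does not resolve exons or untranslated regions.

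Levels of different genes can be compared only per length, for which the length of the matched Arabidopsis protein was used over the 9605 rows that have one. Whether the deposited values were already divided by length is unknown. The ranks and ratios per residue assume that they were not. Per residue CWINV4 ranked 4th in lateral pre-secretory and 8th in lateral secretory nectaries. Its rank was 24 in median pre-secretory, 14 in median secretory, 270 in median post-secretory and 3467 in lateral post-secretory nectaries, and 8376 in leaf. Its level per residue therefore ranked among the highest in the nectary before and during secretion alike.

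CWINV4-like, the second copy, is named for CWINV4 by its product and has no Arabidopsis match in the table. It had a value of 2 in leaf. In lateral nectaries it was 3174 before, 1383 during and 5 after secretion, and in median nectaries 478, 506 and 44. Its highest value was thus in lateral nectaries before secretion, a stage earlier than that of CWINV4 as listed. As a share of the column total, CWINV4 too was higher before than during secretion in lateral nectaries, 1.62% against 1.33%. How much of either value could come from reads that fit both copies was not tested.

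SUS1, which forms UDP-glucose and fructose from sucrose, had a value of 430 in leaf. In lateral nectaries it was 18364, 123226 and 5307 before, during and after secretion, and in median nectaries 6105, 40835 and 8116. Both types had their highest value during secretion, and every nectary value was above that of leaf. It matched AT5G20830 on Arabidopsis chromosome 5, from 7050599 to 7054032 on the reverse strand. Per residue SUS1 ranked 18 of 9605 in lateral and 52 in median secretory nectaries, against 122 and 599 before secretion and 5413 in leaf.

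VI2, described in the table as vacuolar acid beta-fructofuranosidase 4, cleaves sucrose in the vacuole and was highest in leaf at 1556. In lateral nectaries it was 91, 7 and 159 from before to after secretion, and in median nectaries 93, 41 and 188. The secretory stage had the lowest value in each type, and the 2 types were within 1.02-fold of each other before secretion. Its Arabidopsis match, AT1G12240, lies on chromosome 1 from 4153699 to 4157457 on the forward strand.

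SUS3, a second sucrose synthase, had a value of 210 in leaf. It was listed at 0, 1 and 54 in lateral nectaries from before to after secretion, and at 1, 0 and 207 in median nectaries. Before and during secretion it was therefore at or next to 0 in both types, and after secretion the median value was close to that of leaf. It matched AT4G02280 on Arabidopsis chromosome 4, from 995166 to 998719 on the forward strand. In the same post-secretory groups the leaf mesophyll rows summed to 45608 in lateral and 34289 in median nectaries, no higher than before secretion (51419 and 88400), and the pollen rows summed to 2984 and 9677. The part of either in SUS3 was not tested.

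Secretory nectaries were compared with leaf to ask which sucrose-cleaving transcripts differ between nectar-secreting tissue and a green organ. Differences are of log2(value + 1), folds are ratios of the value plus 1, and a row was called higher or lower at 2-fold or more, provided that the larger value was 10 or above. In lateral secretory nectaries 3 members were higher than in leaf and 2 lower, where 29.3% of all rows were higher and 27.5% lower. CWINV4 was 2170-fold higher (log2 11.08), CWINV4-like 461-fold (8.85) and SUS1 286-fold (8.16), while VI2 was 195-fold lower (−7.60). SUS3 was 105-fold lower, resting on a value of 1. In median secretory nectaries the same 3 were higher and the same 2 lower, against 24.6% and 24.9% of all rows. There CWINV4 was 1140-fold, CWINV4-like 169-fold and SUS1 94.7-fold higher, and VI2 was 37.1-fold lower. SUS3 was listed at 0.

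The split from leaf was already present before secretion. In lateral pre-secretory nectaries 3 members were higher and 2 lower, with 22.3% and 19.4% of all rows, or 29.5% and 15.6% after scaling all columns to 1 common total (same-total scaling). CWINV4 was 1870-fold, CWINV4-like 1060-fold and SUS1 42.6-fold higher than in leaf, and VI2 was 16.9-fold lower. Median pre-secretory nectaries gave the same 3 and 2, against 21.1% and 19.5% of all rows, with CWINV4 599-fold, CWINV4-like 160-fold and SUS1 14.2-fold higher and VI2 16.6-fold lower.

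After secretion the distance from leaf was smaller than during it for each member. In lateral post-secretory nectaries CWINV4 was 10.8-fold and SUS1 12.3-fold higher than in leaf, VI2 9.73-fold and SUS3 3.84-fold lower, and CWINV4-like, at 5 against 2, was not called. Among all rows 19.1% were higher and 14.5% lower, or 31.6% and 10.2% with same-total scaling. In median post-secretory nectaries 3 members were higher and 1 lower, with 21.5% and 20.6% of all rows, or 28.4% and 15.7% with same-total scaling. CWINV4 was 103-fold, SUS1 18.8-fold and CWINV4-like 15-fold higher there, VI2 was 8.24-fold lower, and SUS3 was within 1.01-fold of leaf.

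At the onset of secretion SUS1 was called higher in both nectary types and CWINV4 in neither. SUS1 was 6.71-fold higher in secretory than in pre-secretory lateral nectaries and 6.69-fold higher in median ones, log2 differences of 2.75 and 2.74. After quantile normalization they were 1.54 and 2.43, so the near equality of the types holds for the values as listed. CWINV4 had differences of 0.21 and 0.93, and neither was called. CWINV4-like was 2.29-fold lower in lateral nectaries (−1.20) and within 1.06-fold in median ones (0.08). VI2 was lower in both, 11.5-fold in lateral (−3.52) and 2.24-fold in median nectaries (−1.16). SUS3 was at 0 or 1 throughout this step. All 4 pollen marker rows were higher at the onset in each type, with median log2 differences of 2.34 in lateral and 3.05 in median nectaries, and their part was not tested.

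At this step 1 member was higher and 2 were lower in lateral nectaries, where 21.0% of all rows were higher and 23.3% lower, or 13.6% and 35.1% with same-total scaling. In median nectaries 1 was higher and 1 lower, against 16.6% and 17.9% of all rows, or 11.3% and 26.4% with same-total scaling. SUS1 lay at the 94.4th percentile of all rows in lateral and the 94.9th in median nectaries, below the 95th percentile in each. The direction of CWINV4 at the lateral onset turned under both other scalings, to −0.28 with same-total scaling, which was not called, and to −2.08 after quantile normalization, 4.22-fold lower.

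The end of secretion moved all 5 members, and in the same direction in both nectary types. CWINV4 was 202-fold lower after than during secretion in lateral nectaries (−7.66) and 11.1-fold lower in median ones (−3.47). CWINV4-like was 231-fold (−7.85) and 11.3-fold lower (−3.49), and SUS1 23.2-fold (−4.54) and 5.03-fold lower (−2.33). VI2 was higher, 20.0-fold in lateral (4.32) and 4.50-fold in median nectaries (2.17). SUS3 went from 1 to 54 in lateral and from 0 to 207 in median nectaries.

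Thus 2 members were higher and 3 lower in each type. Among all rows 23.6% were higher and 18.3% lower in lateral nectaries, or 39.7% and 9.51% with same-total scaling, and 16.9% and 14.6% in median ones, or 27.5% and 7.12%. CWINV4 and CWINV4-like lay at percentiles 0.0486 and 0.0417 of all rows in lateral nectaries and at 0.424 and 0.41 in median ones. Since the onset and the end share the secretory group, opposite differences in these steps are not independent. The protocol places this stage 12 h after the secretory one but gives 4 to 8 h after dawn for dissections, so its time of day is not settled, and stage and time cannot be told apart. The nectary marker CRC (LOC103831319) was 4.90-fold lower in lateral and 4.58-fold lower in median nectaries at this step. Of the 4 pollen rows, 0 were higher and 1 lower in lateral and 3 higher and 0 lower in median nectaries. The part of either in the members' differences was not tested.

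**Figure D2:**
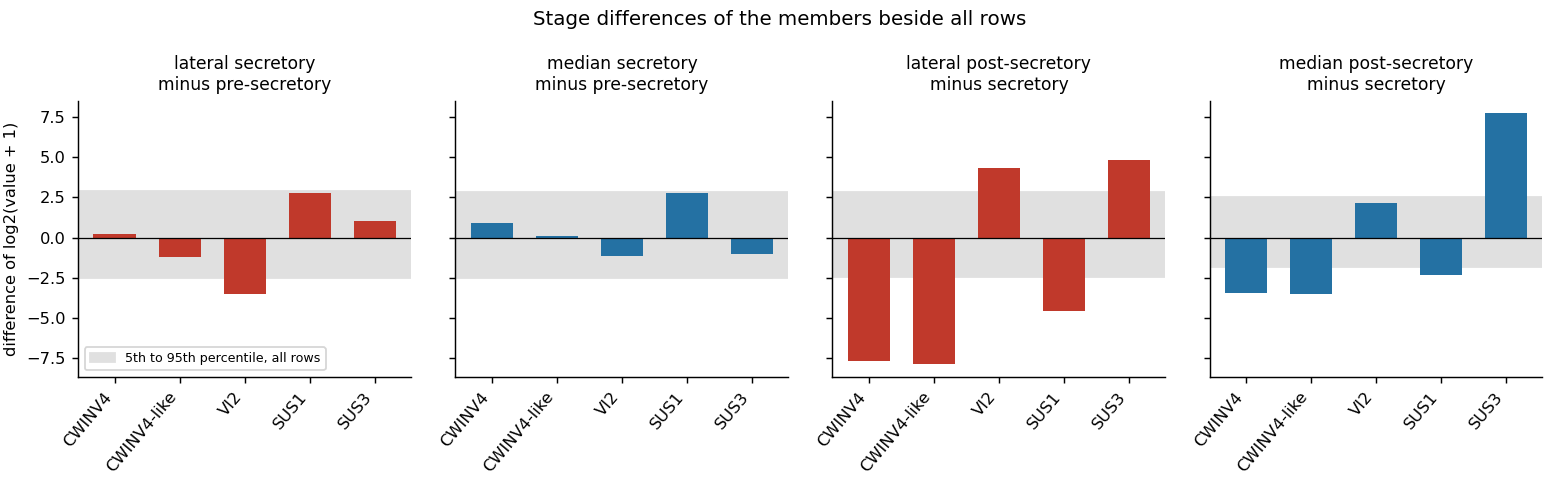
Bars give the difference of log2(value + 1) for each member between successive stages, in lateral (red) and median (blue) nectaries, and the grey band spans the 5th to 95th percentile of all 14390 rows in that comparison. At the onset SUS1 reaches 2.75 and 2.74, inside the band, while at the end CWINV4 reaches −7.66 in lateral and −3.47 in median nectaries, outside it.

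Over the whole course, post-secretory against pre-secretory, lateral nectaries had CWINV4-like 529-fold, CWINV4 174-fold and SUS1 3.46-fold lower. SUS3 was higher there, at 54 against 0, and VI2 was within 1.74-fold, so 1 member was higher and 3 lower, against 16.6% and 14.1% of all rows. In median nectaries CWINV4-like was 10.6-fold and CWINV4 5.80-fold lower, SUS1 was within 1.33-fold, SUS3 was at 207 against 1 and VI2 was 2.01-fold higher. That made 2 higher and 2 lower, with 19.2% and 21.4% of all rows. The call of VI2 in median nectaries was lost with a pseudocount of 10 (1.92-fold) and after quantile normalization (1.95-fold).

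The nectary types were then compared stage by stage, lateral against median. Before secretion 3 members were higher in lateral nectaries and 0 lower, where 6.85% of all rows were higher and 3.8% lower. CWINV4-like was 6.63-fold, CWINV4 3.13-fold and SUS1 3.01-fold higher. During secretion SUS1 was 3.02-fold and CWINV4-like 2.73-fold higher and VI2 5.25-fold lower in lateral nectaries, with 14.0% of all rows higher and 12.5% lower. CWINV4 was 1.89-fold higher, below the fold used. The call of SUS1 was lost after quantile normalization (1.72-fold).

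After secretion the order of the types turned for CWINV4 and CWINV4-like, 2 of the 4 rows named as cell wall invertases. It also turned, by less than 2-fold, for SUS1, the other SUS1 row (LOC103856465) and the cell wall invertase row CWINV3 (LOC103871058). CWINV3 was at 264 in lateral and 299 in median nectaries after secretion, against 2156 and 1592 before it and 2090 and 1367 during it. CWINV4 was 9.61-fold and CWINV4-like 7.5-fold lower in lateral than in median nectaries, SUS3 was 3.78-fold lower, and SUS1 (1.53-fold lower) and VI2 (1.18-fold lower) were not called. So 0 members were higher and 3 lower, against 12.1% and 9.12% of all rows. The decline of CWINV4 at the end of secretion was thus 18.2-fold larger in lateral nectaries, that of CWINV4-like 20.5-fold and that of SUS1 4.61-fold, whereas at the onset the SUS1 differences of the types were 0.00 apart on the log2 scale. This contrast for SUS1 depends on the normalization: after quantile normalization its differences in lateral and median nectaries were 1.54 and 2.43 at the onset and −3.02 and −1.90 at the end. These differences between types were not tested.

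Ratios of 2 transcripts within a group are the same whatever single factor a column is scaled by, but quantile normalization changes them. The value of SUS1 over that of CWINV4, per residue of the Arabidopsis proteins, was 0.105 before, 0.612 during and 5.32 after secretion in lateral nectaries. In median nectaries it was 0.11, 0.384 and 0.846, and in leaf 4.69. The balance between these transcripts therefore went from CWINV4 towards SUS1 at every stage in both types, 50.5-fold over the course in lateral and 7.71-fold in median nectaries. As listed, the ratios of the 2 types were within 1.04-fold of each other before secretion and differed 6.29-fold after it. After quantile normalization the types were not alike before secretion, with lateral minus median differences of 3.03 for CWINV4 and 1.67 for SUS1. Over the lateral course it gave −8.99 for CWINV4 and −1.48 for SUS1.

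SWEET9 (LOC103857843), the exporter of sucrose, gave a similar course against CWINV4. The ratio per residue was 0.213, 2.29 and 20.7 in lateral nectaries and 0.0769, 0.702 and 2.92 in median ones. It was 10.7-fold higher at the onset in lateral and 9.14-fold higher in median nectaries. By the values as listed, CWINV4 was thus within 2-fold in each type of its secretory value a stage before, when SUS1 was 6.69-fold or more and SWEET9 12.4-fold or more below theirs.

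A second SUS1 row (LOC103856465) matched the same Arabidopsis locus as the member. It had a value of 129 in leaf, of 5989, 38194 and 1551 in lateral nectaries and of 2462, 13630 and 2489 in median ones, in stage order. The member was 2.48 to 3.42 times this row in all 7 groups, a range of 1.38-fold. For CWINV4 over CWINV4-like the ratio ran from 33.5 in leaf to 160 in median post-secretory nectaries, a range of 4.76-fold, and was 40.2 in lateral and 85.2 in median pre-secretory nectaries. The SUS1 copies thus kept their proportion across groups more closely than the CWINV4 copies did, and the value of 2 in leaf for CWINV4-like is too low to read closely. Whether shared reads between copies hold the SUS1 ratio together was not tested.

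**Figure D3:**
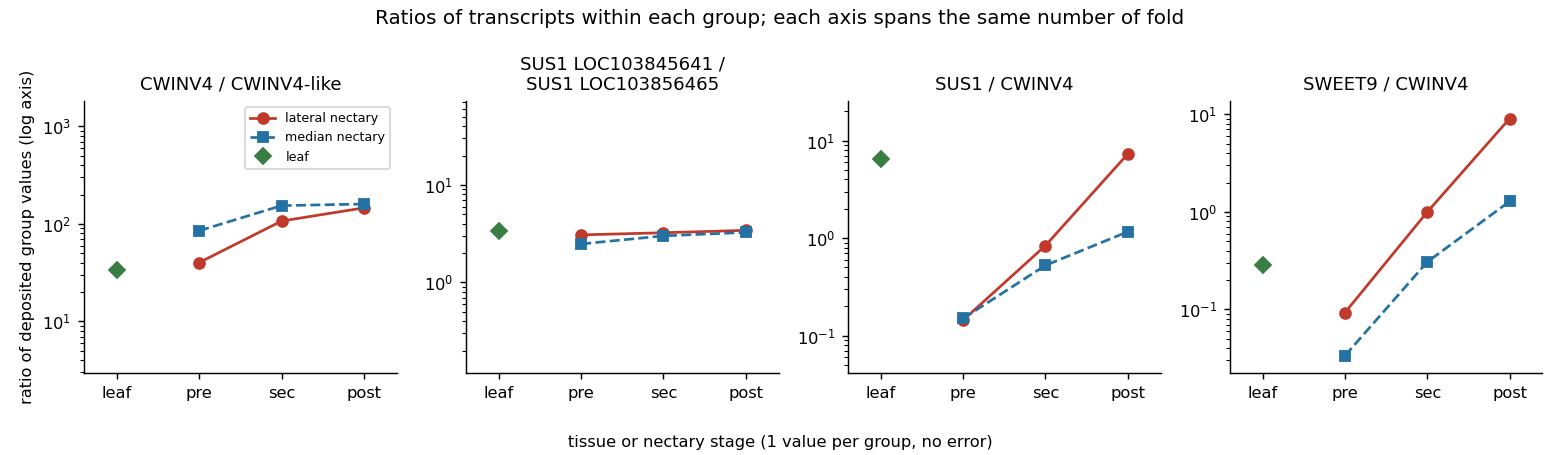
Each panel plots the ratio of 2 transcripts within a group on a log axis of equal fold span, in leaf (diamond) and by stage in lateral (circles) and median (squares) nectaries, from listed values not divided by length. The SUS1 copies stay between 2.48 and 3.42, while SUS1 over CWINV4 goes from 0.144 to 7.27 and SWEET9 over CWINV4 from 0.093 to 9.05 in lateral nectaries.

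For the gene lists that follow, the shares of all rows called are those above: 21.0% higher and 23.3% lower at the lateral onset, 16.6% and 17.9% at the median onset, 23.6% and 18.3% at the lateral end, and 16.9% and 14.6% at the median end.

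Of the other rows named as cell wall invertases, CWINV3 (LOC103871058) resembled CWINV4 in shape with a smaller range. It had a value of 47 in leaf, of 2156, 2090 and 264 in lateral nectaries and of 1592, 1367 and 299 in median ones. It was within 1.16-fold at the onset and 7.89-fold lower in lateral and 4.56-fold lower in median nectaries at the end. CWINV6-like (LOC103846681) went the other way and was listed at 0 in leaf and before secretion, at 1 and 2 during it and at 114 and 81 after it, lateral first. Over the 4 rows so named, 3 were lower and 1 higher at the end of secretion in each type. Their median log2 difference was −5.32 in lateral and −2.83 in median nectaries. Whether each of these rows encodes an enzyme that cleaves sucrose was not tested. The medians of all rows were 0.06 and −0.05.

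Neutral invertases, which cleave sucrose in the cytosol, mitochondria and plastids, had 6 rows and smaller differences. CINV1 (LOC103833584) matched the cytosolic enzyme AT1G35580 and had 171 in leaf, 1170, 1299 and 339 in lateral nectaries and 1045, 515 and 295 in median ones. At the lateral onset 0 of 6 were higher and 3 lower (median −0.89), and at the median onset 0 and 3 (−0.43). LOC103858523, matched to AT4G09510, was 2.88-fold lower in lateral and 2.21-fold lower in median nectaries, and LOC103833964 2.12-fold and 4.73-fold lower. The third of these was LOC103870742, matched to AT3G06500, in lateral nectaries (2.67-fold, 127 against 341) and CINV1 in median ones (2.03-fold). LOC103849456 and LOC103845536, matched to AT1G56560 and AT5G22510, stayed within 2-fold at every stage step, with values from 320 to 607 and from 442 to 1137 in nectaries.

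At the end of secretion 1 of the 6 neutral invertases was higher and 1 lower in lateral nectaries (median 0.81) and 1 was higher and 0 lower in median ones (0.03). CINV1 was the lower row, 3.82-fold, and LOC103833964 the higher one, 3.00-fold in lateral and 4.67-fold in median nectaries.

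**Figure D4:**
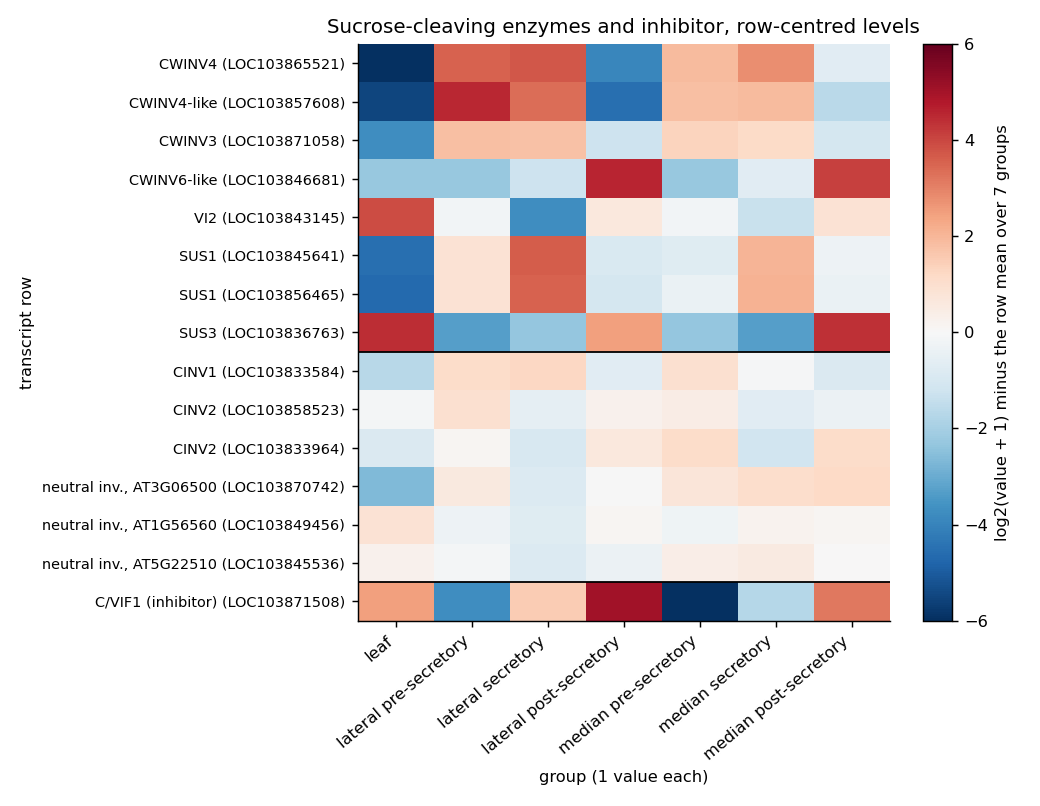
Colours give log2(value + 1) minus the mean of the row over the 7 groups for 15 transcript rows, with the cell wall and vacuolar invertases and sucrose synthases above, the neutral invertases below them and the invertase inhibitor last; red is above and blue below the row mean, and the scale ends at 6. CWINV4, CWINV4-like and both SUS1 rows are red in secretory nectaries, and CWINV6-like, SUS3 and the inhibitor are red after secretion.

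The row C/VIF1 (LOC103871508), named as a cell wall / vacuolar inhibitor of fructosidase, had the reverse course of CWINV4 after secretion. VI2 was higher at that step as well, at 159 against 7 in lateral and 188 against 41 in median nectaries. Which invertase the inhibitor acts on was not tested. The inhibitor had a value of 1801 in leaf, 24, 937 and 10945 in lateral nectaries and 2, 100 and 2919 in median ones. It was 37.5-fold higher at the lateral onset and 33.7-fold at the median onset, and a further 11.7-fold and 28.9-fold higher at the end. CWINV4 over the inhibitor, per residue, went from 1490 before to 44.2 during and 0.0187 after secretion in lateral nectaries. In median nectaries it went from 5720 to 219 and 0.676, and it was 0.0104 in leaf. The ratio of 5720 and the 33.7-fold median onset rest on an inhibitor value of 2, too low to read closely. Their lateral counterparts rest on a value of 24. Of the 2 inhibitor loci looked for, this 1 row was measured.

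Hexokinases phosphorylate the hexoses that invertases release. All 4 rows listed as such by locus or product name were higher in secretory nectaries of both types than in leaf. Of all rows 29.3% were higher than in leaf in lateral and 24.6% in median secretory nectaries. The median log2 difference of the 4 rows was 3.23 in lateral and 3.00 in median nectaries, against 0.1 over all rows. Whether each row has this activity was not tested. The most abundant, hexokinase-1-like (LOC103837987), had 919 in leaf, 15121, 11060 and 1712 in lateral nectaries and 11372, 8841 and 2515 in median ones, high before secretion as CWINV4 was. The row named hexokinase-like 1 (LOC103843922) was instead highest during secretion, at 32, 1286 and 225 in lateral and 2, 363 and 40 in median nectaries. Hexokinase-1 (LOC103828273) stayed within 1.13-fold at the onset. At the end of secretion 4 of 4 rows were lower in lateral (median −2.42) and 2 of 4 in median nectaries (−1.38).

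Fructokinases, which phosphorylate the fructose released by either enzyme class, had 4 rows with mixed directions. The probable fructokinase-1 (LOC103857369) was 11.5-fold higher at the lateral onset, 677 against 58, and 7.10-fold higher at the median onset, 70 against 9. Fructokinase-1 (LOC103831107) and fructokinase-2 (LOC103841326) were lower at this step in both types, the first 2.52-fold and 2.21-fold, the second at 27 and 4 in lateral and 39 and 6 in median nectaries. In total 1 was higher and 3 were lower in lateral nectaries (median −1.19), and 1 and 2 in median ones (−0.59), where 21.0% and 23.3% of all rows were called in lateral and 16.6% and 17.9% in median nectaries.

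UDP-glucose pyrophosphorylases act on the UDP-glucose that sucrose synthase makes, and 1 of their 3 rows had the stage course of SUS1. LOC103856241 was 4.49-fold higher at the lateral onset, 3868 against 860, and 3.11-fold higher at the median onset, 2275 against 731, then 6.07-fold and 4.97-fold lower. LOC103855145 was 2.51-fold lower at the lateral onset and LOC103844159 4.00-fold lower, at 25 against 103. At the median onset the second of these was 3.61-fold lower, and the first was within 1.70-fold.

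Transcripts induced by low oxygen were followed because SUS1 is one of them in Arabidopsis. All 8 rows of this list were higher at the lateral onset (median log2 difference 4.10, against −0.04 over all rows) and 7 of 8 at the median onset (3.17, against 0.03). At the end of secretion 8 of 8 were lower in each type. Alcohol dehydrogenase (LOC103832166) was 143-fold higher at the lateral onset, 112027 against 781, and 26.9-fold at the median onset, 40719 against 1513. The transcription factor rows LBD41-like (LOC103843350) and ERF071 (LOC103843716) were 17.2-fold and 323-fold higher in lateral nectaries, the second from a value of 3, and 4.10-fold and 42.4-fold higher in median ones. The row that was not higher in median nectaries, LOC103850115, is a 14-3-3 protein by its product name and joined the list through 1 of its 2 matched loci. The part of low oxygen in the SUS1 values was not tested.

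Rows most like each member were found by the root mean square distance between profiles of log2(value + 1), each centred on its mean over the 7 groups, among 9344 named rows with a value of at least 100 in some group. With 7 points that share tissue and stage, these are descriptions, and Pearson's r is given without a p-value. Nearest to CWINV4 were a Kunitz-type protease inhibitor row (LOC103852769; distance 0.81, r 0.99), a MATE efflux family row (LOC103860734; 0.90, r 0.976) and the lipid-binding protein row AIR1B (LOC103858045; 0.93, r 0.972). Nearest to CWINV4-like were a lipid transfer protein row (LOC103858636; 0.74), the same Kunitz-type row (0.74) and CWINV4 itself (0.98).

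SUS1 was nearest to a row described as the transcription repressor OFP17 (LOC103843485), at a distance of 0.06. After quantile normalization this distance was 0.49 and the row left the 3 nearest, of which the second SUS1 row (LOC103856465) was then the first, at 0.25. The OFP17 row had 2 in leaf, 117, 802 and 37 in lateral nectaries and 38, 265 and 54 in median ones. By the values as listed, the second SUS1 row followed OFP17 (0.14, r 0.998), then an F-box/kelch-repeat row (LOC103862820; 0.38, r 0.992). For VI2 the nearest were an alpha-galactosidase-like row (LOC103850695; 0.43), a beta-glucosidase 3-like row (LOC103856677; 0.51) and the metal transporter row YSL3 (LOC103844830; 0.63). For SUS3 they were a homeobox-leucine zipper row (LOC103855378; 0.75), peroxidase 34 (LOC103875079; 0.79) and RCI2A (LOC103848481; 0.92). The 5 members were not all near each other, with CWINV4 at 2.12 from SUS1 (r 0.885), 5.85 from VI2 and 7.0 from SUS3.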

How the data were processed

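RNA of leaf and of hand-dissected nectaries was sequenced in 21 libraries, 3 per group, and each nectary replicate pooled nectaries of its own set of plants, per the series' design text. The authors deposited 1 normalized score per group and transcript, a whole number. Per the file headers 6 of the 7 columns are marked UQN, read here as upper-quartile normalized. The aligner, build, counting and the way libraries were combined were not given in the sources used here. Rows are matches to Brassica rapa transcripts, per the file headers, so Brassica juncea copies that match the same row were not separated. Depth per library is unknown, and column totals of these values were 7081592 to 11197495.

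With Python 3.11.15 and pandas 2.3.3, rows at 1 or more in at least 3 groups were kept (14390 of 14398). Differences were of log2(value + 1) in 15 comparisons, with no test. The call needed 2-fold and, a choice made after seeing the data, a larger value of 10 or above. The members and the 13 gene lists and 5 marker lists of Arabidopsis loci were chosen with earlier results of these data known. Rows without a locus could join a list by enzyme name. Named were all invertase and sucrose synthase rows, up to 4 rows of each other list by highest mean and widest range, and the 3 nearest profiles per member. Calculations were tested on simulated data. Other pseudocounts, scalings and filters were tried.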

Additional observations from a re-analysis of the deposited data

How the results depend on the processing

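Each of the 75 member differences was recomputed with pseudocounts of 0.1 and 10, same-total scaling, quantile normalization and no minimum in the higher group, and those of CWINV4 also with its copies summed. The number of members called stayed within 1.5 times in each of the 15 comparisons, and 0 calls changed sign. In all, 9 calls changed. Without the minimum in the higher group, added after seeing the data, 5 more calls were made, 4 of them for SUS3 at 1 against 0. Quantile normalization changed 3 calls, namely CWINV4 at the lateral onset, SUS1 between types during secretion and VI2 over the median course, and a pseudocount of 10 changed the last of these too. The cause was not tested. Same-total scaling moved the median log2 difference of all rows to −0.53 at the lateral onset and 0.70 at the lateral end, from −0.04 and 0.06, and to −0.37 and 0.46 in median nectaries, from 0.03 and −0.05. It changed 0 member calls, but at the lateral end it gave −7.01 for CWINV4, −7.26 for CWINV4-like, −3.89 for SUS1 and 4.92 for VI2. Member differences moved by over 1.5-fold in 4 cases under it, 12 and 25 with pseudocounts of 0.1 and 10, 23 after quantile normalization and 0 with copies summed. Of 30 counts over all rows 7 moved by over 1.5 times. Rows higher in lateral post-secretory nectaries than in leaf went from 2746 to 4550. At the lateral onset, rows higher went from 3022 to 1962 and rows lower from 3346 to 5055. At the lateral end they went from 3398 to 5717 and from 2634 to 1368, and at the median end from 2436 to 3955 and from 2095 to 1025. The filters changed 0 of these counts by that much. Profile neighbours depended on the measure: by Pearson's r, 0 of the 3 nearest rows were shared for each member except SUS1, with 2, and after quantile normalization 1, 2, 3, 1 and 2 were shared for CWINV4, CWINV4-like, VI2, SUS1 and SUS3. No paired analysis was possible because the columns carry 1 value per group, and for the same reason no replicate could be left out.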

Other observations

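Sugar transporter rows had their own stage courses, described here from the same group values with no test. STP7 (LOC103836783), whose Arabidopsis counterpart carries the pentoses arabinose and xylose, had 69 in leaf, 444, 2185 and 1098 in lateral nectaries and 181, 1606 and 868 in median ones, from before to after secretion. The row of a hexose importer, STP1-like (LOC103871888), had the reverse course, with 1022 in leaf, 427, 116 and 821 in lateral and 102, 57 and 1291 in median nectaries. Of the 4 STP rows, 2 were higher and 0 lower at the lateral end of secretion and 3 and 0 at the median end. Their median log2 differences were 1.86 and 1.93. Among all rows 23.6% and 16.9% were higher at these steps, or 39.7% and 27.5% with same-total scaling. The vacuolar transporter row monosaccharide-sensing protein 2 (LOC103829162) was lowest during secretion in both types, the stage at which VI2 was lowest too. Its values were 227, 62 and 665 in lateral and 184, 35 and 173 in median nectaries. The other measured row of that list, ERD6-like 6 (LOC103831982), was instead lowest after secretion in lateral nectaries, at 508, 409 and 285. In median ones it had 714, 553 and 592.

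Sucrose synthesis had 6 rows, of which 0 were higher and 3 lower at the lateral end of secretion (median log2 difference −0.96) and 1 was higher and 4 lower at the median end (−1.21). Among all rows 18.3% were lower at the lateral and 14.6% at the median end, or 9.51% and 7.12% with same-total scaling. The higher row, named here after its values were seen, was the probable sucrose-phosphate synthase 2 (LOC103874391), at 535 against 189. The probable sucrose-phosphate synthase 3 (LOC103844199) was at 1098, 2260 and 25 in lateral and 3040, 3076 and 311 in median nectaries, against 14 in leaf. At the end of secretion it was 87.0-fold lower in lateral and 9.86-fold lower in median nectaries, the order of the types seen for CWINV4.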
